A study of Mus musculus with 2 samples.

Results

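Apolipoproteins and lipid transport genes were examined in YFP+ cells of the adult mouse hippocampus, with and without deletion of Opa1. The 9 genes were Apoe, Apoc1, Clu, Lcat, Abca1, Lrp1, Vldlr, Fabp5 and Plin2, taken by gene symbol from the 22587 symbols of the count matrices. All 9 were found, each with 1 Ensembl identifier. Opa1 encodes a GTPase of the inner mitochondrial membrane, and the study asked how neural stem cells (NSCs) respond when it is lost. Opa1 cKO mice carried Nestin-CreERT2, in which the nestin promoter drives a tamoxifen-dependent Cre, the ROSA26YFP reporter of recombination and Opa1-Flox. Control transgenic (CT) mice carried the same Cre and reporter without the floxed allele, according to the study's methods and the sorting protocol, although the strain label of both samples names all alleles. Tamoxifen was given to both genotypes at 8 weeks of age. Hippocampi were collected at 12 weeks, and living YFP+ cells were sorted by YFP signal and exclusion of propidium iodide. Cells of 3 mice per genotype, males and females, were combined in 1 library made with the 10x Genomics 3′ kit, which counts mRNA molecules as unique molecular identifiers (UMIs).

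Apolipoproteins are the proteins of lipoprotein particles, which carry cholesterol and other lipids between cells. In the brain these particles are made mainly by astrocytes, loaded with cholesterol by ATP-binding cassette transporters, remodelled by enzymes that esterify cholesterol, and taken up by endocytic lipoprotein receptors. Inside the cell, fatty acids travel on binding proteins and surplus lipid is kept in droplets coated by perilipins. Radial glia-like NSCs of the dentate gyrus share many genes with astrocytes, among them much of this pathway.

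The genes lie on 7 chromosomes of mm10 (GRCm38), as the gene models of that build give them. Apoe (chr7:19696109-19699188) and Apoc1 (chr7:19689481-19692660) lie beside each other on the minus strand of chromosome 7. Clu (chr14:65968483-65981547), Vldlr (chr19:27216484-27254231) and Fabp5 (chr3:10012548-10016607) are on the plus strand. Lcat (chr8:105939551-105943382), Abca1 (chr4:53030787-53159895), Lrp1 (chr10:127538161-127621148) and Plin2 (chr4:86648386-86670060) are on the minus strand. Lcat is overlapped on the other strand by Gm16156 and Lrp1 by Gm16217, neither of which was counted in the matrices.

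Promoter sequence is shown for Apoe, the member with most UMIs, and for Abca1, Vldlr and Plin2, the transporter, the receptor and the droplet protein whose differences are described further on. RefSeq start sites of build GRCm38.p6 were held for 6 of the 9 members, and Apoc1, Clu and Fabp5 had none. Each sequence is the 250 bases before 1 start, 5′ to 3′ on the gene's strand, with motif matches in capitals.
Apoe (chr7:19699189-19699438, minus strand): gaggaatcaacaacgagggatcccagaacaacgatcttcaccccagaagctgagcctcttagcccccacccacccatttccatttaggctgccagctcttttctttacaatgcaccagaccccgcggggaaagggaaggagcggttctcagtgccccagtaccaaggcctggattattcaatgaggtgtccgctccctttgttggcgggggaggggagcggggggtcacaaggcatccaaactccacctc
Abca1 (chr4:53159896-53160145, minus strand): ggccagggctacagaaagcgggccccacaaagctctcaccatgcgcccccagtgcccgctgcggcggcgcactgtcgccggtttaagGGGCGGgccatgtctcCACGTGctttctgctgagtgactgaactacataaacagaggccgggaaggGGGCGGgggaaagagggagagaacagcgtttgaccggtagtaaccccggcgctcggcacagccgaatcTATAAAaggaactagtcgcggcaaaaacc
Vldlr (chr19:27216770-27217019, plus strand): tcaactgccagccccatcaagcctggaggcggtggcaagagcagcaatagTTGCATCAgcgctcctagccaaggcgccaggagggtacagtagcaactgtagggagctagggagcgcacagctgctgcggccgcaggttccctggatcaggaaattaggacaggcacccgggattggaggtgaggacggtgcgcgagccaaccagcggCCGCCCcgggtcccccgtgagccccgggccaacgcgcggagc
Plin2 (chr4:86670060-86670309, minus strand): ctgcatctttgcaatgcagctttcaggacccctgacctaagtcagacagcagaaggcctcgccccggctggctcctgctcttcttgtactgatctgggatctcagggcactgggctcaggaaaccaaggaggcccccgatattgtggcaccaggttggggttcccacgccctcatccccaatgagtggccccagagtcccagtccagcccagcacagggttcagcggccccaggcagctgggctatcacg
The motifs searched on both strands were the C/EBP-ATF response element CARE (TGATGNAA), which ATF4 dimers are known to bind, the cyclic AMP element CRE (TGACGTCA), the E-box (CACGTG), a sterol element (TCACNCCAC), the nuclear receptor repeats DR4 and DR1, the GC box (GGGCGG) and the TATA box (TATAAA). Positions count back from the start, with -1 the last base of the window. The Abca1 window held GC boxes at -163 and -97, an E-box at -147 and a TATA box at -29. The Vldlr window held a GC box at -42 and a CARE at -200, read as TTGCATCA on the printed strand, and 179 of its bases lie in the exon of a Vldlr transcript with a retained intron. Neither the Apoe nor the Plin2 window printed here held any of these letters. The table holds other starts of Apoe and Vldlr. The window of the Vldlr start at the 5′ end of its gene model (chr19:27216234-27216483) held none of the motifs. Of the further Apoe starts, both inside the gene, 1 had a CARE at -79 and TATA boxes at -96 and -100 in its window (chr7:19698622-19698871), and the other had none. Over all 32851 windows of the table, 3.45% held a CARE, 6.02% an E-box, 32.7% a GC box and 12.4% a TATA box, while CRE was in 1.55%, the sterol element in 1.05%, DR4 in 0.0152% and DR1 in 0.0335%. A match is a description of the letters only.

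The CT library held 4634 barcodes and the Opa1 cKO library 6475, and after filters on detected genes, mitochondrial share and YFP, 1790 CT cells (5051491 UMIs, median 2555 per cell) and 3764 Opa1 cKO cells (12483473 UMIs, median 3008) were used. The cells were clustered without the 9 genes and named from fixed markers. They gave NSC pool-like (1378 CT and 2590 Opa1 cKO cells), activated NSC-like (11 and 404), progenitor and neuron-like (139 and 169), ependymal-like (39 and 244), mural-like (94 and 167), endothelial-like (55 and 89) and oligodendrocyte-like cells (74 and 101). The NSC pool-like class joined cluster 0, with 1374 CT and 793 Opa1 cKO cells, which was led by mitochondrial genes, Apoc1 and Etnppl, and cluster 1, with 4 CT and 1797 Opa1 cKO cells, led by the stress genes Nupr1 and Gdf15 and by Fibin. A cluster found almost only in 1 library, as cluster 1 and the activated NSC-like cluster were, may be that library and not a type. Clusters 0 and 1 took no name by fold over all other clusters, which gave the leading genes above. They were named against the clusters that already had a name. In that contrast only 4 and 3 of the 12 NSC pool markers were among the top 50 genes of clusters 0 and 1. Most of these markers are also known in mature astrocytes, which cannot be told apart from NSCs here. Opa1 itself was at 18.5 CPM for CT and 8.11 CPM for Opa1 cKO NSC pool-like cells (70 and 69 UMIs). The sources used here do not say which exons are floxed, so these 3′ tags do not check the deletion.

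Levels are given as counts per 1000000 UMIs of all cells of a class and library (CPM), with exact 95% Poisson intervals that cover counting error only. Each genotype is 1 library, so no difference between genotypes has a replicate check and none was tested. A gene is called past the fold when its log2 ratio of CPM was over 0.5 or under -0.5 (1.41-fold) with at least 100 UMIs in both groups together.

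The 9 genes fell into different patterns across the 7 classes. Apoe, Clu, Lcat and Fabp5 had their highest level in NSC pool-like cells in both libraries, while Apoc1 and Abca1 were highest in ependymal-like, Lrp1 in mural-like and Vldlr in oligodendrocyte-like cells. Plin2 was highest in endothelial-like cells in CT and in mural-like cells in Opa1 cKO. The classes differ in depth and share the free RNA of a library. Levels of NSC pool-like genes in progenitor and neuron-like and in oligodendrocyte-like cells are given further on.

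Apoe, the main lipoprotein protein of the brain, reached 42983 CPM (42774 to 43192) for CT and 37973 CPM (37842 to 38104) for Opa1 cKO NSC pool-like cells. Activated NSC-like cells followed with 24324 and 25834 CPM and ependymal-like cells with 17077 and 17655 CPM. At the other end, progenitor and neuron-like cells had 2584 CPM for CT and 4347 CPM for Opa1 cKO, so the highest class exceeded the lowest 16.6-fold in CT and 8.74-fold in Opa1 cKO. Mural-like and oligodendrocyte-like cells overlapped in CT, with 7830 and 7553 CPM, and were the only neighbours in the order whose intervals did. Every NSC pool-like cell of both libraries had an Apoe UMI.

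Clu encodes clusterin, a secreted chaperone that is carried on lipoprotein particles, and its order of classes was close to that of Apoe. It stood at 10926 CPM for CT and 8856 CPM for Opa1 cKO NSC pool-like cells, ahead of ependymal-like cells with 5845 and 4745 CPM. Progenitor and neuron-like cells were lowest, at 520 and 724 CPM. Over the 14 sums of UMIs by class and library, the log2 levels of Apoe and Clu had a Pearson r of 0.95. These points share libraries, depth and free RNA, and r is a description.

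Lcat, the enzyme that esterifies cholesterol on lipoproteins, was far lower outside the NSC pool-like class. Its level there was 524 CPM for CT and 468 CPM for Opa1 cKO. Progenitor and neuron-like cells were lowest with 17.8 and 22.2 CPM, on 8 and 13 UMIs, a 29.5-fold and a 21.0-fold range. Next in order came mural-like cells in CT (129 CPM, 21 UMIs) and activated NSC-like cells in Opa1 cKO (155 CPM, 198 UMIs), and all neighbours after the NSC pool-like class overlapped.

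Fabp5, a fatty acid binding protein, was broader. NSC pool-like cells had 1076 and 994 CPM, progenitor and neuron-like cells 667 and 717 CPM, and oligodendrocyte-like cells 594 and 792 CPM. Endothelial-like cells were lowest with 73.0 and 130 CPM. In Opa1 cKO the oligodendrocyte-like, activated NSC-like and progenitor and neuron-like classes did not separate by their intervals.

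Abca1, which loads cholesterol onto apolipoproteins, was at 219 CPM (24 UMIs) for CT and 103 CPM (98 UMIs) for Opa1 cKO ependymal-like cells, and at 97.1 and 59.6 CPM in NSC pool-like cells. Lrp1, a large endocytic receptor for Apoe-containing particles, was at 153 CPM for CT and 119 CPM for Opa1 cKO mural-like cells, and lowest in oligodendrocyte-like cells with 13.9 and 23.0 CPM. Both genes were spread over several classes, and most neighbours in their orders overlapped. Apoc1, a small exchangeable apolipoprotein encoded next to Apoe, was highest in ependymal-like and NSC pool-like cells. CT ependymal-like cells had 82.2 CPM on 9 UMIs, next to 77.8 CPM on 294 UMIs in NSC pool-like cells, and the intervals overlapped. Progenitor and neuron-like cells and oligodendrocyte-like cells of CT had 0 Apoc1 UMIs, and in Opa1 cKO each had 1.

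Vldlr, a receptor for lipoproteins and reelin, was at 135 CPM (39 UMIs) for CT and 108 CPM (47 UMIs) for Opa1 cKO oligodendrocyte-like cells, the highest level in either library. Next came ependymal-like cells with 27.4 CPM (3 UMIs) and 49.5 CPM (47 UMIs), whose intervals lay below. It had 0 UMIs in the mural-like, endothelial-like and activated NSC-like cells of CT, of which the last were too few to place, since 0 UMIs there allows up to 123 CPM. Plin2, the perilipin that coats lipid droplets in most cells, was at 103 CPM (24 UMIs) in endothelial-like and 85.7 CPM (14 UMIs) in mural-like cells of CT, with overlapping intervals. In Opa1 cKO it was at 223 CPM (75 UMIs) in mural-like and 155 CPM (60 UMIs) in endothelial-like cells.

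**Figure D1:**
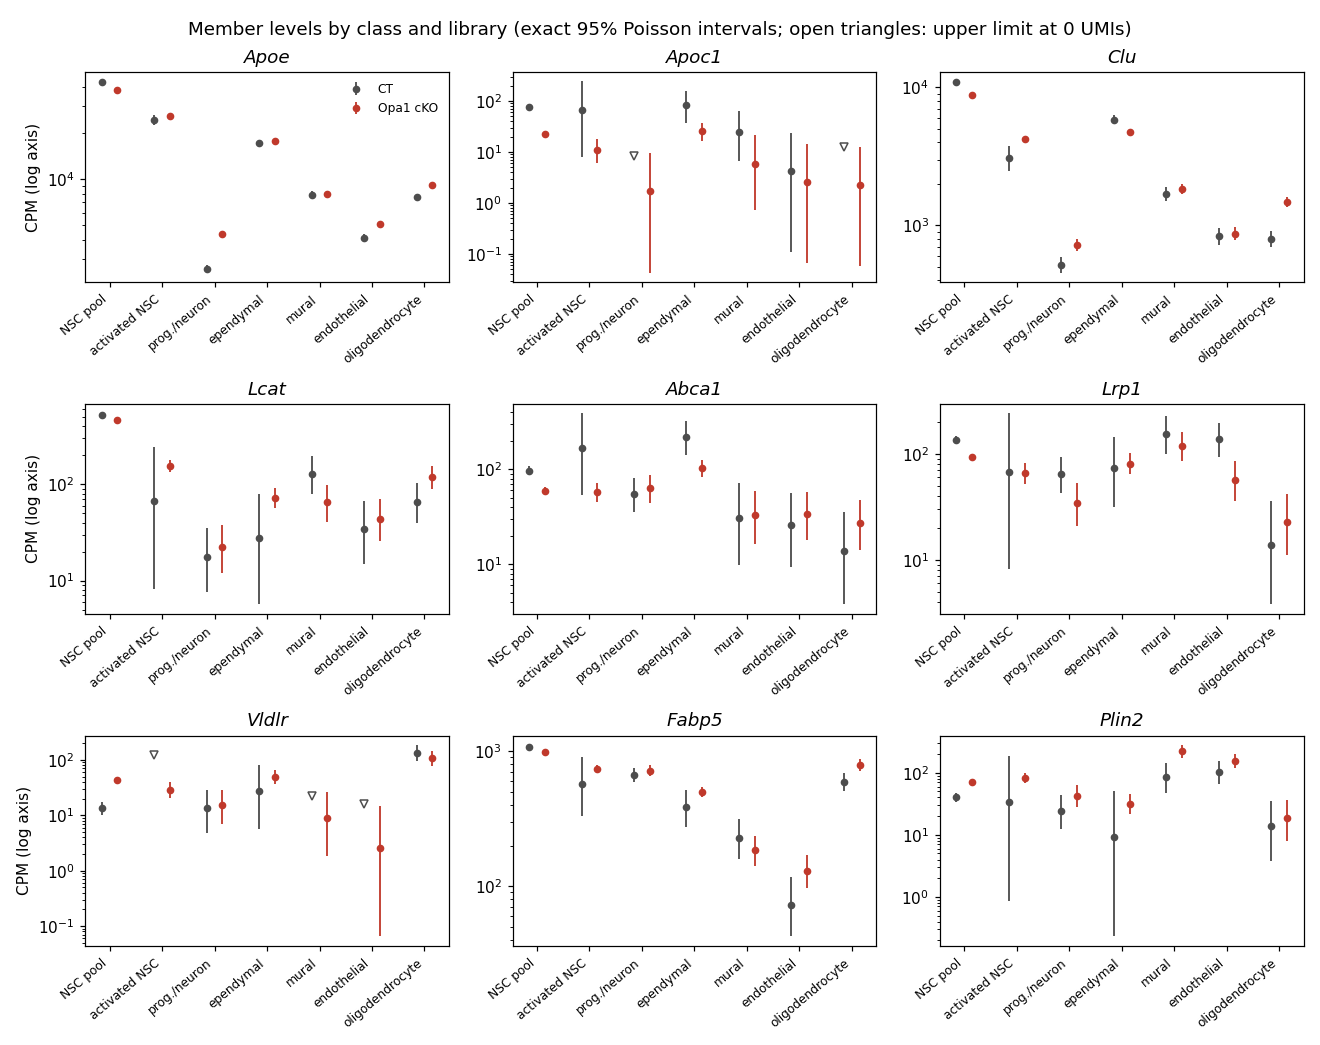
Levels of the 9 genes (CPM, log axis) in the 7 classes of CT (grey) and Opa1 cKO (red) cells, with exact 95% Poisson intervals, and open triangles for the upper limit where no UMI was seen. Apoe, Clu, Lcat and Fabp5 are highest in NSC pool-like cells of both libraries, and in that class Apoc1, Abca1 and Lrp1 are lower and Vldlr and Plin2 higher in Opa1 cKO.

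In NSC pool-like cells, Vldlr and Plin2 were higher and Apoc1, Abca1 and Lrp1 lower in Opa1 cKO than in CT past the fold, while Apoe, Clu, Lcat and Fabp5 stayed within it. Among all 8770 genes with enough UMIs in this comparison, 16.9% were higher and 13.6% lower past the fold, against 2 and 3 of the 9 members. The median log2 ratio of the members was -0.18, that of all genes 0.06. Mitochondrial RNA moved with the genotype in this class, since the median mitochondrial share of a cell's UMIs was 5.24% in CT and 0.670% in Opa1 cKO.

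The secreted particle proteins were lower in Opa1 cKO by different amounts. Apoc1 went from 77.8 CPM (69.2 to 87.2) in CT to 22.2 CPM (19.1 to 25.6) in Opa1 cKO, a log2 ratio of -1.81 with an exact 95% interval of -2.08 to -1.54. For Apoe the ratio was -0.18 (-0.19 to -0.17) and for Clu -0.30 (-0.32 to -0.29), both inside the fold although their intervals leave out 0. Lcat differed by -0.16 (-0.24 to -0.09). Thus of the apolipoprotein pair on chromosome 7, Apoc1 was past the fold and Apoe was not.

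Among transporters and receptors, Abca1 and Vldlr went in opposite directions. Abca1 was at 97.1 CPM (87.5 to 108) for CT and 59.6 CPM (54.5 to 65.0) for Opa1 cKO, a log2 ratio of -0.71 (-0.90 to -0.51). Lrp1 was at 136 CPM (124 to 148) and 94.0 CPM (87.6 to 101), a ratio of -0.53 (-0.69 to -0.37) whose interval crosses the fold. Vldlr was at 13.5 CPM (10.1 to 17.8) and 43.6 CPM (39.3 to 48.3), on 51 and 371 UMIs, a ratio of 1.69 (1.27 to 2.14). The CT and Opa1 cKO intervals of the level, which cover counting error only, did not overlap for any of these 3 genes.

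Of the intracellular proteins, Plin2 was at 40.5 CPM (34.3 to 47.4) for CT and 71.4 CPM (65.9 to 77.3) for Opa1 cKO, a log2 ratio of 0.82 (0.56 to 1.08). Fabp5 differed little, with a ratio of -0.11 (-0.17 to -0.06). Hence the lipid droplet protein and the lipoprotein receptor Vldlr were the members that were higher.

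These ratios depend on which cells stand for the Opa1 cKO class, since 1797 of its 2590 cells were in cluster 1. Within cluster 0 alone, a choice added after the data had been seen, Apoe had a log2 ratio of 0.22, Clu of 0.13 and Lcat of 0.51, the opposite direction to the whole class. Vldlr was at 0.19, Plin2 at 0.37 and Lrp1 at -0.33, inside the fold, whereas Apoc1 at -0.59 and Abca1 at -0.88 remained lower past it. Lcat was just past the fold upward. The shares of all genes past the fold are not given for cluster 0 alone. Fabp5 was at 0.08.

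Cells within the Opa1 cKO library were therefore split by the mitochondrial share of their UMIs, into low (under 1%, 1581 cells), middle (1% to under 3%, 242 cells) and normal (3% or more, 767 cells). CT had 3, 107 and 1268 such cells. Median depth was close between the groups, with 2962 UMIs in low and 3042 UMIs in normal Opa1 cKO cells, and 2542 UMIs in normal CT cells. Of the low cells, 1580 belonged to cluster 1, and of the normal cells 755 to cluster 0, so the share and the stress gene cluster cannot be told apart. The 3 comparisons in NSC pool-like cells share cells, and their values are given side by side.

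Within the Opa1 cKO library, Apoe, Apoc1, Clu and Lcat were lower and Vldlr and Plin2 higher past the fold in cells of low than of normal mitochondrial share. Lower past the fold were 4.37% of the 7412 genes with enough UMIs, against 4 of 9 members, and higher were 28.6%, against 2 of 9. The members' median log2 ratio was -0.40, that of all genes 0.27. Mitochondrial UMIs count in the total of a class. Ratios of the members centred on the median of 0.27 are given where they change a call. What set this median was not tested.

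Lcat was at 747 CPM (714 to 782) in normal cells and 344 CPM (328 to 360) in low cells, a log2 ratio of -1.12 (-1.21 to -1.03). Apoc1 was at 49.6 CPM (41.3 to 59.1) and 7.60 CPM (5.43 to 10.3), on 125 and 40 UMIs, a ratio of -2.71 (-3.26 to -2.18). Apoe was at 50105 and 32626 CPM, a ratio of -0.62 (-0.63 to -0.61), and Clu at 11998 and 7442 CPM, a ratio of -0.69 (-0.71 to -0.67). All 3 particle proteins and the enzyme that acts on the particles were thus lower in the low cells. Their intervals did not overlap, but these cover counting error only.

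Vldlr was at 16.3 CPM (11.7 to 22.1) in normal cells and 56.0 CPM (49.8 to 62.8) in low cells, a log2 ratio of 1.78 (1.31 to 2.29). Plin2 was at 52.3 CPM (43.8 to 62.1) and 79.9 CPM (72.5 to 88.0), a ratio of 0.61 (0.33 to 0.90), which came to 0.34 when ratios were centred on the median gene. Abca1 at 0.17 (-0.13 to 0.47), Lrp1 at -0.40 (-0.62 to -0.18) and Fabp5 at -0.27 (-0.34 to -0.20) stayed within the fold. After centring, Lrp1 at -0.66 and Fabp5 at -0.54 were past it. The share of all genes past the fold is not given for centred ratios, and the shares given above are for uncentred ones. Before centring, the Lrp1 ratio was at percentile 7.08 of all genes and the Fabp5 ratio at percentile 10.7. Every gene below Fabp5 is also past the fold downward once centred, so these calls are not read as particular to the members. Abca1 was the member with the least difference between the 2 groups of cells, and its centred ratio was -0.10.

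**Figure D2:**
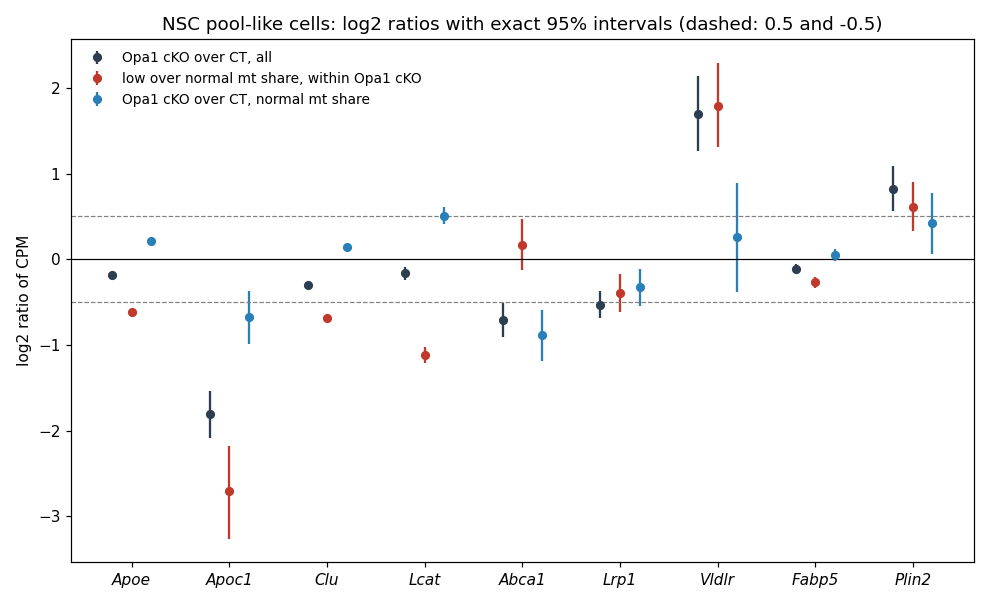
Log2 ratios of CPM of the 9 genes in NSC pool-like cells for Opa1 cKO over CT (dark), low over normal mitochondrial share within Opa1 cKO (red) and Opa1 cKO over CT at normal share (blue), with exact 95% intervals and dashed lines at 0.5 and -0.5. Apoe, Clu and Lcat lie below 0 in the first 2 comparisons and above 0 in the last, while Apoc1 lies below -0.5 in all 3.

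Finer steps of mitochondrial share placed the difference for Lcat and Apoe between the steps of 1% to 2% and of 3% to 5%. Opa1 cKO cells with a share under 0.5% (995 cells), of 0.5% to 1% (586 cells) and of 1% to 2% (166 cells) had 343, 346 and 308 CPM of Lcat. Cells of 2% to 3% (76 cells), 3% to 5% (315 cells) and 5% to 20% (452 cells) had 556, 704 and 776 CPM. Apoe had 32141, 33496 and 32821 CPM in the 3 lowest steps and 38005, 49769 and 50333 CPM in the 3 highest. In CT cells of 3% to 5% and of 5% to 20%, Lcat was at 572 and 495 CPM.

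Vldlr was at 51.8, 63.6, 48.5 and 48.0 CPM in the first 4 steps of Opa1 cKO cells and at 19.7 and 14.0 CPM in the last 2, the latter near the 10.5 and 15.5 CPM of CT cells with the same shares. Plin2 was at 90.5 CPM below 0.5%, and between 51.2 and 78.0 CPM in the other steps. Apoc1 was at 6.51, 9.55 and 21.1 CPM in the 3 lowest steps and at 56.0, 40.3 and 55.8 CPM in the 3 highest. In CT cells with shares of 3% to 5% and 5% to 20% Apoc1 was at 80.8 CPM (66.3 to 97.5) and 78.2 CPM (66.9 to 90.8). These intervals lay above that of Opa1 cKO cells of 3% to 5%. They overlapped those of Opa1 cKO cells of 5% to 20% (44.5 to 69.1 CPM) and of 2% to 3% (30.6 to 94.0 CPM).

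**Figure D3:**
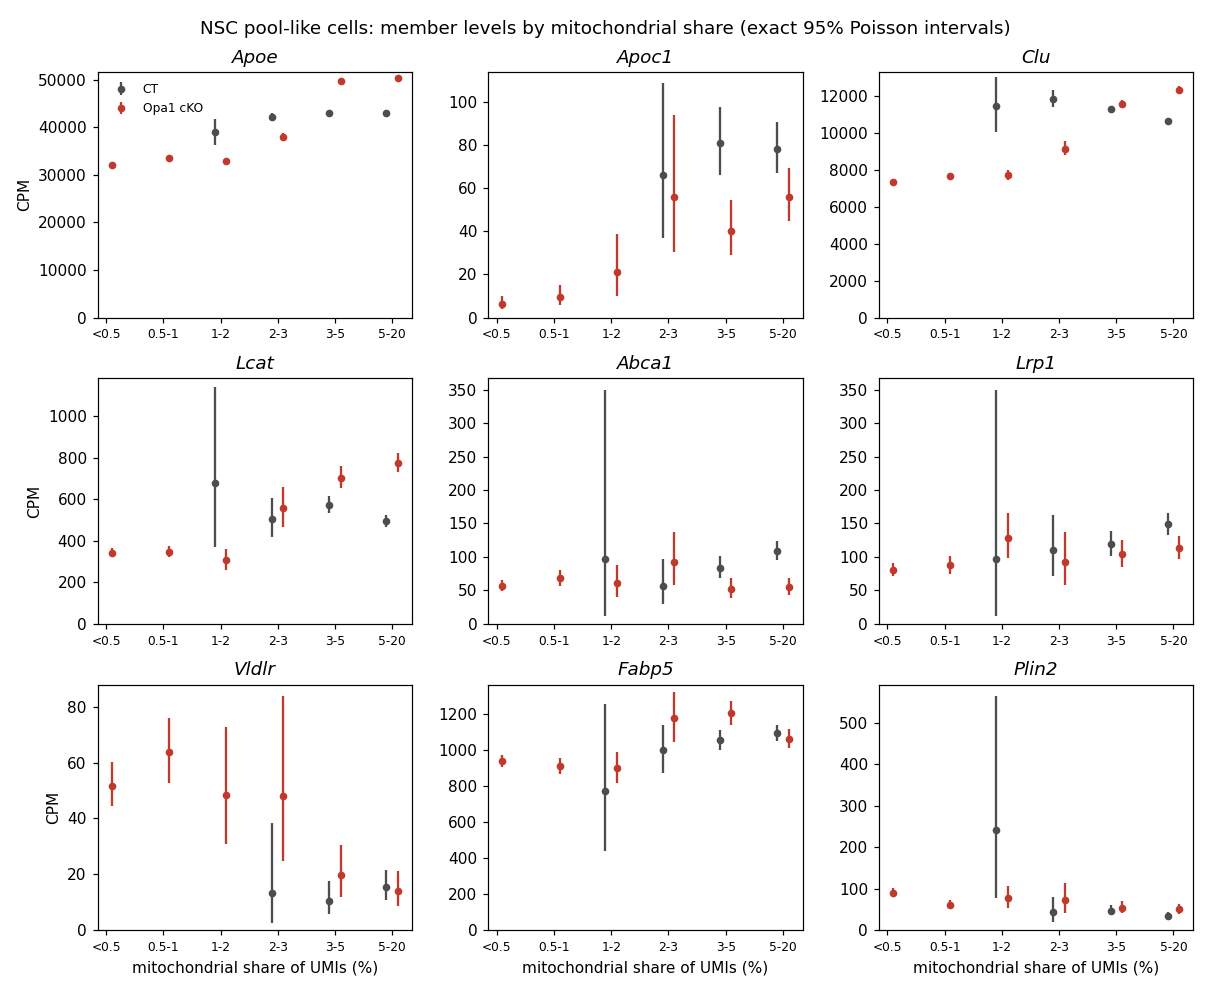
Levels of the 9 genes (CPM) in NSC pool-like cells of CT (grey) and Opa1 cKO (red) by mitochondrial share of UMIs (%), with exact 95% Poisson intervals; CT steps with fewer than 11 cells are left out. Apoe, Clu and Lcat of Opa1 cKO cells are lowest in the steps under 2% and at or above the CT level in the highest step, and Vldlr of Opa1 cKO cells is higher in the 4 steps under 3% than in the 2 above.

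Cells of normal mitochondrial share gave a different set of differences between the genotypes. Lcat was higher, and Apoc1 and Abca1 lower, past the fold, among the 8 members with enough UMIs. In this comparison 3.09% of 6596 genes were higher and 15.2% lower past the fold, against 1 and 2 of the 8 members. The median of these members was 0.10 and that of all genes -0.08.

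Lcat was at 524 CPM (501 to 549) in normal CT cells and 747 CPM (714 to 782) in normal Opa1 cKO cells, a log2 ratio of 0.51 (0.42 to 0.60). That value is just over the fold, and 5 of 17 alternatives placed it just under, with a range over all of them of 0.47 to 0.59. Abca1 was at 99.6 CPM (89.5 to 111) and 53.9 CPM (45.2 to 63.8), a ratio of -0.89 (-1.18 to -0.60). Apoc1 was at 79.2 CPM (70.2 to 89.0) and 49.6 CPM (41.3 to 59.1), a ratio of -0.68 (-0.99 to -0.37). Abca1 and Apoc1 were thus lower in Opa1 cKO also where the mitochondrial share was like that of CT, with medians of 5.46% and 5.39%.

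The other members differed less at normal share. Apoe was at 43082 and 50105 CPM, a log2 ratio of 0.22 (0.21 to 0.23), and Clu at 10874 and 11998 CPM, a ratio of 0.14 (0.12 to 0.16), both opposite in direction to the whole class. Plin2 had a ratio of 0.42 (0.06 to 0.77), Lrp1 of -0.33 (-0.54 to -0.11) and Fabp5 of 0.05 (-0.02 to 0.12). Vldlr, with 48 and 41 UMIs, was at 13.6 and 16.3 CPM, and its interval of -0.38 to 0.89 includes 0 and the fold. A difference of Vldlr at normal share was not detectable at this depth.

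The percentage of NSC pool-like cells in which a gene had a UMI is a second view of the same counts. For genes of low level it follows the CPM, so it cannot tell few expressing cells from low expression in many. Each cell was thinned to 1500 UMIs, which left 1284 CT cells (94 shallower ones left out) and 2389 Opa1 cKO cells (201 left out). Vldlr UMIs were seen in 1.48% of the CT and 5.99% of the Opa1 cKO cells, Plin2 in 5.30% and 10.4%, and Apoc1 in 7.87% and 2.26%. Without thinning, at median depths of 2492 and 2960 UMIs, Vldlr was in 3.48% and 12.2%, Plin2 in 9.22% and 19.7%, and Apoc1 in 11.8% and 4.59%. The direction of these 3 shares was that of the CPM with and without thinning, which is no separate support, since both come from the same UMIs.

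By mitochondrial share, Vldlr was in 1.52% of normal CT, 1.77% of normal Opa1 cKO and 8.33% of low Opa1 cKO cells after thinning. Lcat was in 47.9%, 58.3% and 38.8% of these cells and Apoc1 in 8.12%, 4.76% and 1.10%. Lcat thus gave the order normal Opa1 cKO, normal CT, low Opa1 cKO in shares as in levels. Plin2 was in 4.99%, 7.34% and 11.7%, and Abca1 was in 13.4%, 6.39% and 8.47%.

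As a background for Apoc1, progenitor and neuron-like cells, with median depths of 2836 and 3126 UMIs, had 0 of 136 (CT) and 0 of 162 (Opa1 cKO) thinned cells with the gene, with exact upper limits of 2.68% and 2.25%. The Apoc1 share of low Opa1 cKO cells, 1.10% (0.631% to 1.78%), lay under these limits, too low to place against this background. Those of normal CT and normal Opa1 cKO cells, 8.12% and 4.76%, lay above them. For Vldlr, endothelial-like cells, with median depths of 3636 and 3826 UMIs, had it in 0 of 54 and 0 of 89 cells, with upper limits of 6.60% and 4.06%. The Vldlr share of low Opa1 cKO cells lay above these limits, and those of normal cells of both genotypes lay under them, too low to place against a background at this number of cells. Endothelial-like cells were not planned as background. Of the planned classes, oligodendrocyte-like cells had Vldlr in 18.9% for CT and 10.9% for Opa1 cKO, above the low Opa1 cKO share. Progenitor and neuron-like cells had it in 0.735% (0.0186% to 4.03%) and 1.85% (0.384% to 5.32%), below that share. Oligodendrocyte-like cells, with median depths of 3767.5 and 3914 UMIs, had Plin2 in 1.35% (0.0342% to 7.30%) for CT and 2.97% (0.617% to 8.44%) for Opa1 cKO. The Plin2 share of NSC pool-like cells was above that oligodendrocyte-like interval in Opa1 cKO, at 9.23% to 11.7%, and overlapped it in CT, at 4.14% to 6.67%. It was not above the share of progenitor and neuron-like cells in Opa1 cKO. Those cells had Plin2 in 10.5% (6.23% to 16.3%) for Opa1 cKO, beside 10.4% of the NSC pool-like cells. For CT the progenitor and neuron-like share was 3.68%, with an upper limit of 8.37%. The class read as background differs between these genes, and which class gives the background was not tested. Oligodendrocyte-like cells had Lcat in 6.76% and 11.9%, well under the NSC pool-like shares of 47.7% and 45.3%.

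**Figure D4:**
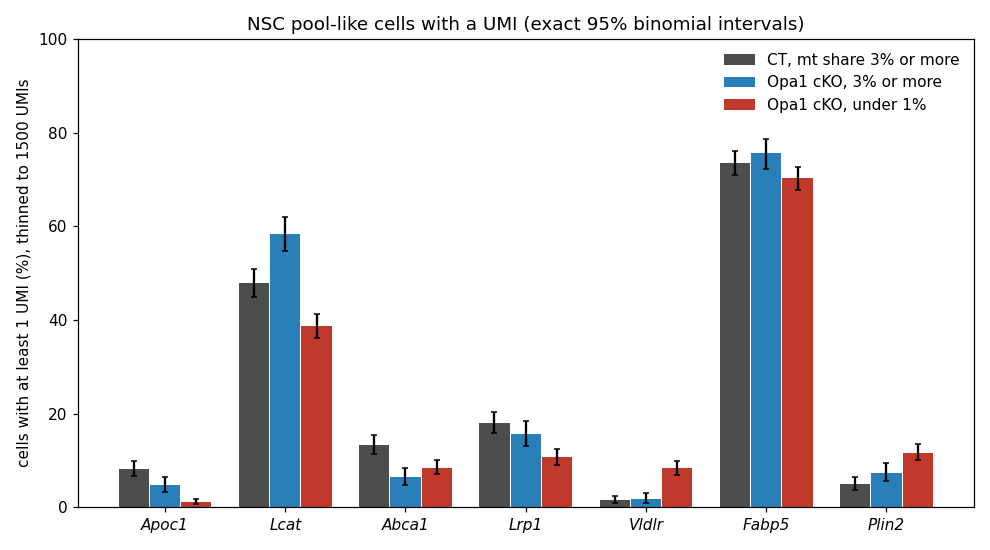
Share of the NSC pool-like cells with at least 1 UMI (%) of 7 members after thinning each cell to 1500 UMIs, for CT cells of normal mitochondrial share (grey), Opa1 cKO cells of normal share (blue) and Opa1 cKO cells of low share (red), with exact 95% binomial intervals. Vldlr is highest in the low Opa1 cKO cells (8.33%), Lcat is highest in the normal Opa1 cKO cells (58.3%), and Apoc1 is highest in CT (8.12%).

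Microglia, which also make Apoe, were looked for among NSC pool-like cells. All 12 microglia markers had UMIs there, with a summed level of 72.5 CPM for CT and 135 CPM for Opa1 cKO. Within Opa1 cKO the sum was 134 CPM in low and 139 CPM in normal cells, and in low cells the defining markers Cx3cr1 and Tmem119 were at 0. Only 8 of 1378 CT and 59 of 2590 Opa1 cKO cells had UMIs of 2 or more microglia markers, and without them the number of members past the fold was the same in the comparisons of NSC pool-like cells. Oligodendrocyte markers summed to 383 and 430 CPM, mural markers to 177 and 134 CPM and endothelial markers to 51.9 and 37.8 CPM. Their part in the members' values was not tested.

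In activated NSC-like cells the CT side had 11 cells and 29888 UMIs, and 5 members had enough UMIs. Lcat and Plin2 were nominally past the fold upward, with log2 ratios of 1.21 (-0.66 to 4.27) and 1.32 (-1.19 to 6.64) on 2 and 1 CT UMIs, and 0 members were past it downward. In this comparison 34.2% of 2444 genes were higher and 18.1% lower past the fold. Apoe was at 24324 and 25834 CPM, a ratio of 0.09, and Clu at 3078 and 4217 CPM, a ratio of 0.45 (0.16 to 0.77). Vldlr had 0 UMIs in CT, which allows up to 123 CPM, and 28.9 CPM in Opa1 cKO. With log-normalization, which put 46 CT cells in the class, Apoe was at -0.26 and Clu at -0.42, the opposite direction. No member's difference is read in this class.

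In progenitor and neuron-like cells Apoe was higher in Opa1 cKO past the fold, at 2584 CPM (2438 to 2737) for CT and 4347 CPM (4180 to 4519) for Opa1 cKO, a log2 ratio of 0.75 (0.65 to 0.85). It was 1 of 3 members with enough UMIs, while 14.7% of 1971 genes were higher and 14% lower past the fold. Clu was at 520 and 724 CPM, a ratio of 0.48 (0.24 to 0.71), and Fabp5 at 667 and 717 CPM. Leaving out the 5% of cells of highest doublet score per library, a choice added after the data had been seen, gave 0.35 for Apoe and -0.03 for Clu. Clustering without mitochondrial and stress genes gave 1.44 and 1.04.

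Other genes of NSC pool-like cells were also nearer their NSC pool-like level in progenitor and neuron-like cells of Opa1 cKO than of CT. For 9 reference genes of the NSC pool-like class, such as Aldoc and Slc1a3, the level in progenitor and neuron-like cells was 4.17% to 17.4% (median 7.62%) of the NSC pool-like level in CT, and 7.42% to 31.7% (median 15.2%) in Opa1 cKO. Apoe was at 6.01% and 11.4% and Clu at 4.76% and 8.17%, inside both ranges. In oligodendrocyte-like cells the reference genes were at a median of 9.27% in CT and 17.0% in Opa1 cKO, and Clu at 7.28% and 16.7%. Lcat in progenitor and neuron-like cells was below the ranges, at 3.39% (1.46% to 6.70%, 8 UMIs) and 4.76% (2.53% to 8.15%, 13 UMIs). Its intervals reached into the ranges in both libraries. In the same cells Fabp5 (62.0% and 72.2%), Abca1 (57.2% and 106%), Lrp1 (47.5% and 36.4%), Plin2 (60.4% and 59.9%) and Vldlr (98.8% and 35.3%) were above the ranges in both libraries, on few UMIs for Vldlr and Plin2. In Opa1 cKO the intervals of Lrp1 (22.1% to 56.6%, 20 UMIs) and Vldlr (16.0% to 67.8%, 9 UMIs) reached into the range. Vldlr in oligodendrocyte-like cells was at 1003% and 248% of its NSC pool-like level. Whether the reference genes, Apoe and Clu reached these values through free RNA, doublets or the cells' own transcripts was not tested.

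In ependymal-like, mural-like, endothelial-like and oligodendrocyte-like cells 4, 2, 2 and 3 members had enough UMIs, of which 2 were past the fold. Over all genes 22.2%, 21.2%, 11.2% and 13.3% were higher past the fold in these classes, and 8.41%, 10.4%, 10.4% and 9.4% lower. Clu was at 795 CPM for CT and 1476 CPM for Opa1 cKO oligodendrocyte-like cells, a log2 ratio of 0.89 (0.67 to 1.12), where 13.3% of genes were higher past the fold. Abca1 was at 219 and 103 CPM in ependymal-like cells, a ratio of -1.09 (-1.74 to -0.38), where 8.41% were lower. Abca1 was therefore lower in Opa1 cKO in ependymal-like as in NSC pool-like cells. With fewer than 100 UMIs, Plin2 in mural-like cells was at 85.7 and 223 CPM, with an interval of the log2 ratio of 0.55 to 2.32, and Lrp1 in endothelial-like cells at 137 and 57.0 CPM, with an interval of -2.12 to -0.44. Other such intervals that left out 0 were those of Apoc1 in ependymal-like (-2.86 to -0.41) and Fabp5 in endothelial-like cells (0.01 to 1.71). Lcat went opposite ways in mural-like (-1.90 to -0.04) and oligodendrocyte-like cells (0.07 to 1.70). None of these is called past the fold.

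Other genes of lipid transport were read from lists of 108 genes, all of them in the matrices. In NSC pool-like cells 64 had enough UMIs, of which 4 were higher and 12 lower in Opa1 cKO past the fold, with a median log2 ratio of -0.11. Over all genes 16.9% were higher and 13.6% lower, with a median of 0.06. Between cells of low and normal share 55 had enough UMIs, with 6 higher and 9 lower and a median of 0.01, where 28.6% of all genes were higher and 4.37% lower, with a median of 0.27. These ratios were not centred. At normal share, 51 had enough UMIs, with 5 higher and 5 lower and a median of -0.01, beside 3.09% and 15.2% of all genes.

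The lipoprotein receptors had 3 of 12 genes lower past the fold and 0 higher, beside 13.6% and 16.9% of all genes. Lrp8, the other reelin receptor, was at 42.1 and 24.8 CPM, a log2 ratio of -0.76 (-1.07 to -0.46), and within Opa1 cKO at 34.9 CPM in normal and 19.4 CPM in low cells, a ratio of -0.85 (-1.27 to -0.42). Lrp1b at 0.34 and Sorl1 at 0.13 were highest in this list, both within the fold. Vldlr and Lrp8 thus went in opposite directions in both comparisons.

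The lipid droplet list had G0s2, an inhibitor of the droplet lipase ATGL, higher past the fold and 0 of 13 genes lower (16.9% and 13.6% of all genes). G0s2 was at 75.7 and 227 CPM, a log2 ratio of 1.58 (1.40 to 1.77), while Abhd5 was at 0.49, Soat1 at -0.42 and Mgll at -0.40. Within Opa1 cKO, G0s2 was at 115 CPM in normal and 279 CPM in low cells, a ratio of 1.28 (1.10 to 1.47). Plin2 and G0s2 were thus both higher in Opa1 cKO and, within it, in the low cells.

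Among the listed regulators, 3 of 10 were lower past the fold and 0 higher, where all genes had 13.6% and 16.9%. The list holds sterol regulators and others, such as Ppara, Ppard, Pparg and Tfeb. Insig1, which holds back the sterol sensor complex, was at 578 and 249 CPM, a log2 ratio of -1.21 (-1.30 to -1.13), and at -1.03 (-1.15 to -0.90) at normal share. Ppard was at -0.65, while Insig2 at 0.45 and Nr1h3, a sterol receptor known to drive Abca1, at 0.33 (-0.22 to 0.91) were within the fold. Between low and normal cells, without centring, Insig1 was at -0.28 (-0.41 to -0.14) and Abca1, as given, at 0.17.

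For efflux and remodelling, Pltp, the phospholipid transfer protein, was higher at 15.6 and 27.6 CPM, a log2 ratio of 0.82 (0.40 to 1.26). Abca8a (-1.15) and Abcg4 (-0.60) were lower, with 4 of 7 genes within the fold, Lipa at -0.24 among them. Over all genes 16.9% were higher and 13.6% lower past the fold, which stands beside this list and those that follow. Of the fatty acid genes, Acsl4 (-0.97) and Mfsd2a (-0.80), a lysolipid transporter, were lower and 7 of 9 were within the fold, with Acsbg1 at 0.28 and Acsl6 at 0.09. In intracellular sterol transport, Stard5 (0.72) and Scp2, the sterol carrier protein, were higher, Scp2 at 312 and 501 CPM, and Stard4 (-0.86) and Cyp46a1 (-0.56) were lower. Of the other apolipoproteins only Apoo and Apool, known as mitochondrial proteins, had enough UMIs, with ratios of 0.41 (0.25 to 0.58) and 0.15 (-0.27 to 0.58).

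The genes most like each member over the 14 sums by class and library were found among 7148 genes by Pearson r of log2(CPM + 10). For Apoe these were Mt1, Prdx6 and Pla2g7, and for Clu Mt1, Ramp1 and Ngef, with r between 0.96 and 0.98. Lcat was most like Enho, Pmm1 and Hsd11b1, and Apoc1 most like Frmpd1, Slc35d1 and Dlg5. Abca1 was closest to Cachd1, Chsy1 and Ralgps2, and Lrp1 to Bmpr1a, Lpp and Dmd. Vldlr went with Hacd1, Kif1bp and Acot7, Fabp5 with Pfn2, Pcsk1n and Lrrc4b, and Plin2 with Inpp5b and Rbpms2. Between members, Apoc1 had an r of 0.82 with Clu and 0.80 with Abca1, and Lrp1 and Vldlr had the lowest, -0.68.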

How the data were processed

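The matrices of 1 CT and 1 Opa1 cKO library, each of pooled mice, were used. The authors aligned 10x Genomics 3′ v2 reads to mm10, and the deposited values are raw UMI counts per gene and barcode, without normalization. The submitters' processing notes name Cell Ranger 2.1.1, whereas the matrix headers name 3.1.0, and the annotation is not given in the sources used here. Counting used unique molecules, which limits the effect of amplification, and 3′ tags do not read the whole transcript. The libraries held 10799936 (CT) and 18662032 (Opa1 cKO) UMIs, and 36 barcode sequences occurred in both, 9 among kept cells.

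Cells with over 600 and under 7500 genes, under 20% mitochondrial UMIs and at least 1 YFP UMI were kept. They were clustered with Seurat 5.3.0 and sctransform 0.4.2 (R 4.3.3; 8 dimensions, resolution 0.2), leaving out the 9 members. A cluster took a name with at least 3 markers among its top 50 genes by fold over the other clusters. At least 3 markers, and at least 1 in 3 of those listed, also had to exceed a log2 fold of 1. Clusters left without a name were read again, against the named clusters only. Both NSC pool-like clusters took their name in this way. The rule was set after the clusters had been seen. Scrublet (scanpy 1.11.5) marked 1 CT and 5 Opa1 cKO kept cells, too few for a working call, and no doublets were removed. UMIs were summed per class and library (python 3.11.15, numpy 2.4.6, scipy 1.17.1, pandas 2.3.3; figures with matplotlib 3.10.9). Poisson and binomial (Clopper-Pearson) intervals at 95% are exact, and the interval of a ratio comes from the binomial split of the UMIs. The interval calculation was tested on simulated data. The named genes are the 9 members, the 2 highest and 2 lowest log2 ratios of each pathway list in NSC pool-like cells with at least 100 UMIs, and the 3 genes most like each member with at least 300 UMIs. The members and lists were chosen with earlier results of these data known. Some genes that this rule names are not reported here. The 20 alternatives, 3 of them added after seeing the data, concerned filters, clustering, denominators, depth, the mitochondrial split and the fold.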

Additional observations from a re-analysis of the deposited data

How the results depend on the processing

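No paired analysis was possible because each genotype is 1 library, and no replicate could be left out. Of 530 log2 ratios recomputed under alternatives, 434 stayed within the interval of the reported value, 95 moved outside it and 1 past the fold changed sign, and of 170 counts of members past the fold 144 were unchanged within 1.5 times. This last value was Lcat in activated NSC-like cells, at -0.48 with log-normalization, on few CT UMIs. In that class 5 members were higher with all variable genes, 4 at resolution 0.4, 4 at a fold of 0.3, 1 after thinning and 0 with log-normalization. At normal mitochondrial share the 1 higher member became 0 when clustering left out mitochondrial and stress genes, without the YFP filter, with all barcodes over 200 genes, with the mean over cells, with a split at 2% and at a log2 fold of 1, and 2 when centred on the median gene or at a fold of 0.3, and at a fold of 1 the lower members became 0. In progenitor and neuron-like cells the count of higher members was 2 without mitochondrial and stress genes, with log-normalization and at a fold of 0.3, and 0 at a fold of 1 and without the highest doublet scores. Between low and normal cells it was 1 without mitochondrial and member UMIs in the denominator, when centred and at a fold of 1, where 2 were lower. In all NSC pool-like cells it was 1 at a fold of 1 and in cluster 0 only, and 1 was lower at a fold of 1. The shares of all genes past the fold are not given for these settings, so these counts are not read as results about the members. The cause of these moves was not tested. Without thinning, the shares of NSC pool-like cells that had a UMI in CT and Opa1 cKO were 11.8% and 4.59% for Apoc1, 61.5% and 63.1% for Lcat, 21.4% and 16.7% for Abca1, 28.1% and 24.8% for Lrp1, 3.48% and 12.2% for Vldlr, 83.7% and 85.8% for Fabp5, and 9.22% and 19.7% for Plin2. With log-normalization Apoe, Clu and Fabp5 of activated NSC-like cells, none past the fold, also changed sign, to -0.26, -0.42 and -0.05. Without the highest doublet scores Clu of progenitor and neuron-like cells went from 0.48 to -0.03. Depth limits Vldlr at normal share and all members in activated NSC-like cells.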

Other observations

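Leaving out the YFP filter gave a further cluster, microglia-like, of 39 CT and 104 Opa1 cKO cells. Apoe was at 24118 CPM for CT and 23112 CPM for Opa1 cKO in these cells, and every cell had an Apoe UMI. Clu was at 2531 and 3298 CPM, Fabp5 at 344 and 552 CPM and Lcat at 125 and 192 CPM. Plin2 was at 31.2 CPM (3 UMIs) for CT and 111 CPM (30 UMIs) for Opa1 cKO, and their intervals of 6.44 to 91.3 CPM and 74.9 to 159 CPM overlapped. Vldlr was at 72.9 CPM (7 UMIs) and 14.8 CPM (4 UMIs), Lrp1 at 125 and 77.7 CPM, Abca1 at 72.9 and 51.8 CPM and Apoc1 at 20.8 and 48.1 CPM, all with intervals that overlapped between the libraries.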
